A study of Homo sapiens with 4 samples.

Results

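The 10 genes described here encode the nuclear lamins and the proteins that tie the lamina to the inner nuclear membrane and to chromatin. They are LMNA, LMNB1, LMNB2, LBR, EMD, TMPO, SUN1, SUN2, BANF1 and LEMD3, each a single entry among the 15575 genes of a count table from U251 cells. LMNB2 was picked because its level in PRMT3-KD cells was among the most reduced of the table, so its change is given as a description with no test. The other 9 genes and the lists below were chosen by function, but with earlier results of these data known. Their counts beside the shares of all genes tested are therefore descriptions.

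U251 is an established human glioblastoma (GBM) cell line, and every library comes from this 1 line. RNA-seq compared 2 libraries of Ctrl cells, which the labels name pGreen_Ctrl, with 2 libraries of PRMT3-KD cells, in which PRMT3 was reduced by an shRNA delivered with a lentivirus. Per the study, the Ctrl cells received a control lentivirus. Below, the PRMT3-KD libraries are called knockdown libraries. The hairpin used for these libraries was not given in the sources used here, and nothing in the labels says that libraries 1 and 2 of a group came from separate cultures, so p-values measure only the spread between these libraries. The study asked what part PRMT3, a cytoplasmic arginine methyltransferase, has in the growth of GBM cells, and used RNA-seq to look for mechanisms.

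The lamins are intermediate filament proteins that form a meshwork under the inner nuclear membrane. LMNA encodes the A-type lamins A and C, while LMNB1 and LMNB2 encode the B-type lamins B1 and B2, which keep a farnesyl anchor in the membrane. LBR, emerin (EMD), most isoforms of LAP2 (TMPO) and MAN1 (LEMD3) span the inner membrane and hold lamina and chromatin, SUN1 and SUN2 form the inner part of the bridge to the cytoskeleton, and the small DNA-binding protein BAF (BANF1) links chromatin to the LEM domain shared by emerin, LAP2 and MAN1. The envelope is dismantled and rebuilt at each mitosis, and in many cell types a fall of lamin B1 accompanies senescence.

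Library totals ranged from 24804250 to 29756313 counts. The 2 Ctrl libraries differed by little more than counting error (chi-square of 1.42 per degree of freedom, where counting error alone gives about 1), against 63.6 for the 2 knockdown libraries. PRMT3 itself had 535 counts in each Ctrl library against 77 in knockdown library 1 and 45 in library 2, so it was reduced where the labels say so. Of the glioma line markers, VIM, NES, CD44 and SOX2 were each above 100 CPM in Ctrl cells, whereas GFAP, the astrocyte filament gene, was at 13.7 CPM, and it had 32 counts in knockdown library 1 and 153 in library 2. CDH5, an endothelial gene, had 129 to 146 counts in 3 libraries and 722 in knockdown library 2. VWF, another endothelial gene, had 65 and 57 counts in Ctrl, against 30 and 70 after knockdown, and PECAM1 was not among the genes counted. The part of these markers in the results was not tested. Of the immune genes, PTPRC had at most 7 counts in any library, whereas CD68, a lysosomal gene of macrophages that other cells also express, had 665 and 704 counts in Ctrl, against 753 and 845 after knockdown. The epithelial gene CDH1 had 0 counts in both Ctrl libraries. In bulk RNA, fewer cells of a kind and less RNA per cell cannot be told apart.

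LMNB2 (ENSG00000176619) lies on the minus strand of chromosome 19, from 2427636 to 2456957 of GRCh37, the same assembly as the hg19 of the study, and its canonical transcript has 12 exons. The 7-base sequence CAGCTCA, searched with earlier results of these libraries known, is printed here because LMNB2 was the only member to carry it in the 3′ UTR. LMNB2 carries it once there and once in its coding sequence, and PRMT3 carries it once in its coding sequence. The 3 sites are given 5′ to 3′ on the transcribed strand with CAGCTCA in capitals.
LMNB2 3′ UTR, exon 12, chr19:2429632-2429658, minus strand: tcagaaagtgCAGCTCAagtcttaaag
LMNB2 coding sequence, exon 8, chr19:2433831-2433857, minus strand: caagtttgtgCAGCTCAagaacaactc
PRMT3 coding sequence, exon 7, chr11:20419215-20419241, plus strand: gtgtttatttCAGCTCAtacgggcatt
The run shared by the LMNB2 3′ UTR site and the PRMT3 site was 7 bases long, that is, the searched sequence alone. Among 12750 tested genes with a 3′ UTR in the canonical transcript, 17.4% carried CAGCTCA there. Among the 1965 genes with a 3′ UTR of 2196 to 3431 bases (2745 in LMNB2), 25.4% did. The median log2 fold change was -0.111 with CAGCTCA and 0.031 without it over the 12750 genes. In that length range the medians were -0.117 and 0.082. The shorter AGCTCA was present 3 times in the 3′ UTR of LMNB2 and 2 times in that of LEMD3, and was absent from the 3′ UTRs of the other 8 members. LMNA had 1 CAGCTCA in its coding sequence. A match is a description of the letters, and its part in any change was not tested.

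The normalised level of LMNB2 was 639 and 634 CPM (each count relative to its library total, scaled by TMM, which allows for differences in composition between libraries) in Ctrl, against 164 and 105 CPM after knockdown. Both knockdown libraries lay far below both Ctrl libraries, and they also differed from each other by more than the Ctrl libraries did. The Ctrl mean was 636 ± 4.02 CPM and the knockdown mean 134 ± 41.9 CPM (SD, 2 libraries each), so that 21.1% of the Ctrl level remained. The log2 fold change was -2.25, with -1.96 in knockdown library 1 and -2.61 in library 2. An order of falls was made of genes that passed as lower, averaged 10 CPM or more and had both knockdown libraries below both Ctrl libraries. In it LMNB2 was in place 5, just after IL10RB at -2.37 and just before HMGB2 at -2.08. Over all 13172 genes tested, without these filters, its log2 fold change was in place 15 from the most negative.

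**Figure D1:**
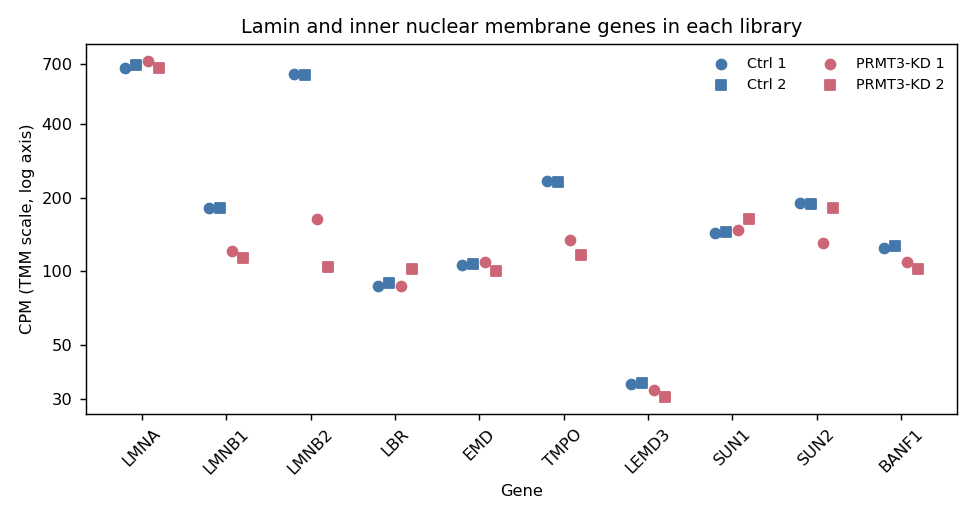
Normalised level of the 10 genes in each library, in CPM on the TMM scale (log axis), with circles for library 1 and squares for library 2 of each group. LMNB2, TMPO and LMNB1 have both PRMT3-KD points well below both Ctrl points, while LMNA, LBR and EMD overlap between the groups.

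Of the other 9 members, 2 passed the threshold as lower in knockdown cells, against 5.97% of the 13172 genes tested, and 0 passed as higher, against 4.97%. To pass, a gene needed more than a 1.5-fold change and an adjusted p below 0.05 in the quasi-likelihood test of edgeR, with Benjamini-Hochberg adjustment over all genes tested. By the adjusted p alone, the members that passed were again 2 as lower (8.91% of all genes tested) and 0 as higher (8.39%). By DESeq2 and by limma-voom, 0 of the 9 passed as higher as well. At an unadjusted p under 0.05 in edgeR, 3 of the 9 were lower, BANF1 being the additional gene, and 0 were higher. The shares of all genes tested at that unadjusted level were not counted, here or for the lists below. The 8.91% and 8.39% belong to the stricter adjusted p, so they are no background for these unadjusted counts, which are descriptions. Both knockdown libraries lay below both Ctrl libraries for 5 of the 9 members, against 33.8% of all genes tested, and above them for 1 of the 9, against 33.3%. The median log2 fold change of the 9 was -0.13, beside 0.0055 over all genes tested.

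LMNB1 (ENSG00000113368, chromosome 5 from 126112315 to 126172712), the gene of lamin B1, was at 181 and 182 CPM in Ctrl, against 121 and 113 CPM after knockdown. The groups were well separated and the knockdown libraries lay close together. LMNB1 fell by 0.63 on the log2 scale (standard error 0.0741, 95% confidence interval -0.83 to -0.44, adjusted p = 0.0193 from the edgeR test), which left 64.5% of the Ctrl level.

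TMPO (ENSG00000120802, chromosome 12 from 98909357 to 98944129), which encodes the LAP2 proteins, showed 233 and 231 CPM in Ctrl, against 134 and 117 CPM after knockdown. TMPO fell by 0.89 on the log2 scale (standard error 0.0957, 95% confidence interval -1.14 to -0.63, adjusted p = 0.0185 from the edgeR test), to 54.1% of the Ctrl level. The annotation holds 2 TMPO pseudogenes and an antisense gene, TMPO-AS1, whose exons overlap 7.60% of the exonic bases of TMPO. Whether the counting used strand is not given in the sources used here. Without Ctrl library 1 or Ctrl library 2, the adjusted p was 0.252 or 0.243 for LMNB1 and 0.165 or 0.151 for TMPO (edgeR), with log2 fold changes of -0.64 or -0.63 and -0.88 or -0.89. In those fits the lone Ctrl library was assumed to vary like the knockdown libraries, and 0 genes of the whole table passed.

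LMNA (ENSG00000160789, chromosome 1 from 156052364 to 156109872) had more counts than any other member in every library. It was at 679 and 693 CPM in Ctrl, against 723 and 679 CPM after knockdown, and the groups overlapped. Its log2 fold change was 0.03 (95% confidence interval -0.16 to 0.23, adjusted p = 0.786, edgeR), so the interval excludes a fall of the size seen for LMNB1. Lamin A and lamin C are counted together here.

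The make-up of the lamin transcripts differed between the groups. Levels of different genes were compared per length, as CPM per kb of the canonical transcript. In Ctrl cells LMNA was at 216 ± 3.23, LMNB2 at 137 ± 0.868 and LMNB1 at 62.7 ± 0.296 CPM per kb (SD, n = 2 each), and in knockdown cells they were at 221 ± 9.92, 28.9 ± 9.04 and 40.4 ± 1.95 CPM per kb (SD, n = 2 each). LMNB2 was above LMNB1 in both Ctrl libraries and below it in both knockdown libraries. The B-type share of the summed lamin level was 48.4% and 47.8% in Ctrl, against 25.3% and 22.4% after knockdown. It holds LMNB2 and is therefore a description. The summed lamin level of the knockdown cells was 69.7% of that of Ctrl cells. Without LMNB2, LMNB1 made up 22.6% and 22.4% of the summed LMNA and LMNB1 level in Ctrl, against 15.5% in each knockdown library (exact two-sided permutation test p = 0.333, the smallest that 2 against 2 libraries allow).

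**Figure D2:**
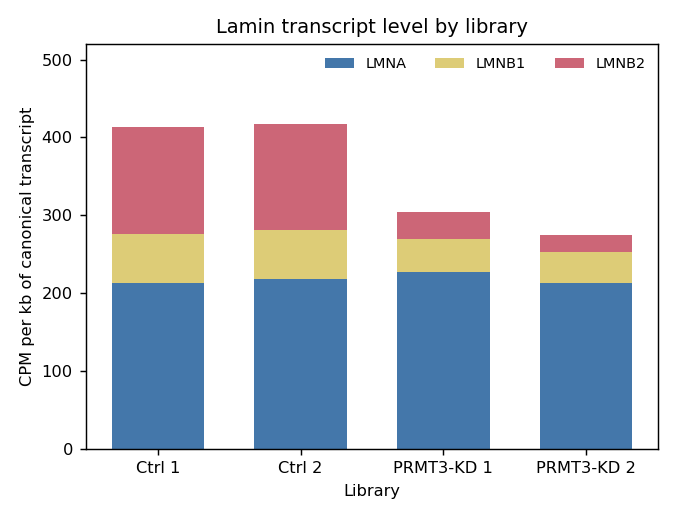
Level of LMNA, LMNB1 and LMNB2 in each library, stacked, in CPM per kb of canonical transcript (linear axis from 0). The LMNA part is of like height in all 4 libraries, and the LMNB2 part shrinks from 137 in Ctrl to 28.9 CPM per kb in knockdown cells (means of 2 libraries).

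The remaining inner membrane receptors differed less. LBR (ENSG00000143815), which binds B-type lamins and the HP1 proteins and is also a sterol reductase, was at 87.1 and 89.7 CPM in Ctrl, against 86.8 and 102 CPM after knockdown. The first knockdown library was level with Ctrl and the second was above both. The log2 fold change of LBR was 0.10 (95% confidence interval -0.18 to 0.38, adjusted p = 0.549, edgeR).

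EMD (ENSG00000102119), the gene of emerin on chromosome X, was at 106 and 107 CPM in Ctrl, against 109 and 101 CPM after knockdown, with overlapping groups. Its log2 fold change was -0.03 (95% confidence interval -0.23 to 0.18, adjusted p = 0.834, edgeR). LEMD3 (ENSG00000174106), the gene of MAN1, was the member with the lowest level, at 34.7 and 35.0 CPM in Ctrl, against 32.8 and 30.7 CPM after knockdown. Its log2 fold change of -0.13 (95% confidence interval -0.36 to 0.10, adjusted p = 0.328, edgeR) did not pass although the groups did not overlap. Of the 3 LEM domain genes among the members, only TMPO passed, and its interval (-1.14 to -0.63) does not meet those of EMD and LEMD3. The difference between these genes was not tested.

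BANF1 (ENSG00000175334), which encodes BAF, was at 124 and 127 CPM in Ctrl, against 109 and 102 CPM after knockdown. Its groups did not overlap, and the log2 fold change was -0.25 (95% confidence interval -0.44 to -0.05, unadjusted p = 0.0239, adjusted p = 0.0860, edgeR), which misses the threshold. The annotation holds 5 BANF1 pseudogenes, with which a gene of 3 exons and a canonical transcript of 731 bases may share reads.

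Of the members with a test, SUN2 had the largest standard error (0.173 on the log2 scale). SUN2 (ENSG00000100242) was at 190 and 188 CPM in Ctrl but at 131 CPM in knockdown library 1 and 182 CPM in library 2. Only library 1 stood clearly apart, and the log2 fold change was -0.27 (95% confidence interval -0.74 to 0.19, adjusted p = 0.316, edgeR), with -0.53 in library 1 and -0.05 in library 2. SUN1 (ENSG00000164828) was at 143 and 145 CPM in Ctrl, against 147 and 163 CPM after knockdown, both slightly above Ctrl. Its log2 fold change was 0.11 (95% confidence interval -0.12 to 0.33, adjusted p = 0.410, edgeR). SUN1 shares 15.5% of its exonic bases with GET4 on the same strand, and SUN2 shares 13.6% with GTPBP1 on the other strand, so reads there may belong to the neighbour.

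**Figure D3:**
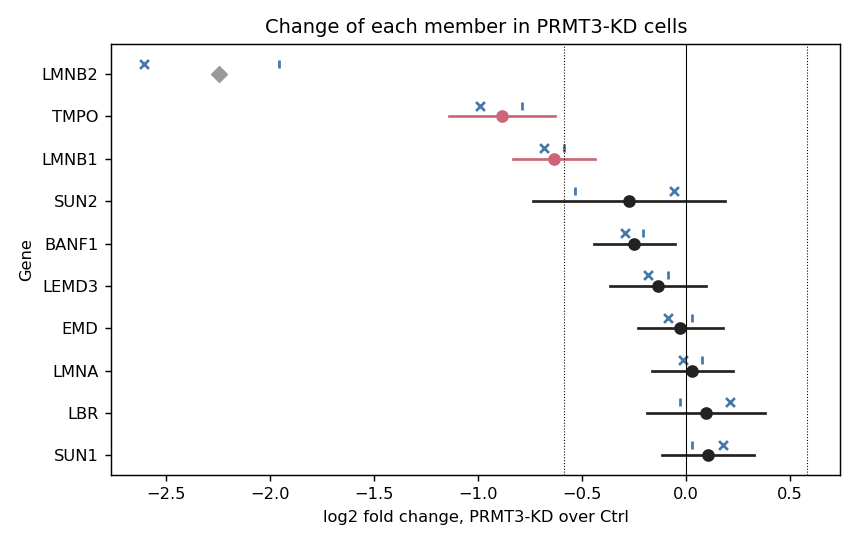
log2 fold change of PRMT3-KD over Ctrl for each gene from edgeR, with bars for the 95% confidence interval and blue marks for each knockdown library against the Ctrl mean (vertical dash for library 1, cross for library 2). Dotted lines mark 1.5-fold, red genes passed the threshold, and LMNB2 (grey diamond, no interval) was picked for its change of -2.25.

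In Ctrl cells the order of the 10 genes per length was LMNA, BANF1, LMNB2, EMD, LMNB1, TMPO, SUN2, SUN1, LBR and LEMD3, from 216 to 7.29 CPM per kb. Each neighbour in this order differed by more than the SD of either gene. In knockdown cells LMNB2 moved from place 3 to place 8. There LMNB1 (40.4 ± 1.95), SUN2 (39.5 ± 9.17) and SUN1 (38.6 ± 2.84 CPM per kb, SD, n = 2 each) were within their spread, and so were TMPO (30.3 ± 3.04), LMNB2 (28.9 ± 9.04) and LBR (25.2 ± 2.96 CPM per kb, SD, n = 2 each). The order depends on the length used. With all annotated exons of a gene in place of the canonical transcript, LMNB2 was first in Ctrl at 118 CPM per kb, above LMNA at 84.2 and BANF1 at 83.8.

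The genes whose profile over the 4 libraries was most like that of LMNB2, by Euclidean distance of mean-centred log2 CPM among 9458 other genes of at least 10 CPM, were E2F2 (distance 0.238), HMGB2 (0.330) and ADAM15 (0.475). E2F2 encodes a cell cycle transcription factor, HMGB2 a chromatin protein and ADAM15 a membrane protease. LMNB2 was picked for its fall, and its profile over these 4 libraries mostly reflects that fall, so the likeness is a description. E2F2, HMGB2 and ADAM15 were in places 3, 6 and 8 of the order of falls given above. CAGCTCA was present in the 3′ UTRs of E2F2 and HMGB2 and absent from that of ADAM15.

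Promoter windows from RefSeq (GRCh38.p14, 250 bases before to 50 after each start) matched 9 of the 10 members, all but SUN1. CCAAT or its reverse complement ATTGG, the box bound by NF-Y in many cell cycle promoters, was present in a window of 6 of the 9, against 43.8% of 10103 tested genes with a window. The 6 were LMNB1 and TMPO, which passed as lower, and LMNA, EMD, SUN2 and LEMD3, which did not pass, and LMNB2 was not among them. TTTGAA or TTCAAA, the letters of the cell cycle homology element, was present for 2 of the 9, LMNB2 and SUN2, against 14.2% of genes. In LMNB2 the letters begin at base -246 from the start, near the outer edge of the window. The sites of LMNB1 and TMPO are shown because both genes passed as lower, and that of LMNB2 for comparison, 5′ to 3′ on the gene's strand with the matched letters in capitals.
LMNB1, chr5:126776988-126777012 of GRCh38.p14, plus strand: cctgctccccATTGGcccatggtag
TMPO, first site, chr12:98515516-98515540 of GRCh38.p14, plus strand: agccgtctcgCCAATcaccgccgcg
TMPO, second site, chr12:98515548-98515572 of GRCh38.p14, plus strand: ccgtcgcccgCCAATggcggcgcgc
LMNB2, chr19:2457190-2457209 of GRCh38.p14, minus strand: gttcTTTGAAcacgttttga
TTCGAA was in no window of the 9, against 2.42% of genes, and TTCCCGCC or GGCGGGAA was in a window of LMNA alone, against 6.29%. These matches are letters in a window, and binding was not measured.

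Lists of other genes of the nuclear envelope were examined beside the members. None of the 6 lamin maturation genes passed with edgeR (5.97% of all genes tested passed as lower, 4.97% as higher), DESeq2 or limma-voom. At an unadjusted p under 0.05 in edgeR, 2 of the 6 were lower and 0 higher. Of these, ICMT, which methylates the farnesylated end of prelamin A and the B-type lamins, had an adjusted p of 0.0464 (edgeR) with a log2 fold change of -0.57, which is under 1.5-fold. FNTA and FNTB, the subunits of farnesyltransferase, were at 0.17 (adjusted p = 0.233) and -0.42 (adjusted p = 0.0740) on the log2 scale in edgeR, and ZMPSTE24, the protease that matures lamin A, was at -0.0027.

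None of the 8 LINC and torsin genes passed with edgeR, against 5.97% of all genes tested as lower and 4.97% as higher. At an unadjusted p under 0.05, 2 of the 8 were lower and 2 higher. SYNE1, which encodes nesprin-1, the partner of the SUN proteins across the envelope, had a mean of 56.7 ± 2.32 CPM in Ctrl, against 90.6 ± 21.7 CPM after knockdown (SD, 2 libraries each), with a log2 fold change of 0.68 (adjusted p = 0.0706, edgeR). SYNE1 passed as higher with DESeq2 (adjusted p = 0.00736) and with the replicate number as a block (adjusted p = 0.0412, edgeR). TOR1A, an ATPase of the perinuclear space, and TOR1AIP2, one of its activators, were at -0.56 (adjusted p = 0.0312) and 0.42 (adjusted p = 0.0362) on the log2 scale in edgeR, both under 1.5-fold. With the block, the adjusted p of TOR1AIP2 was 0.0723.

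Of 8 other inner membrane genes, 2 passed as lower (5.97% of all genes tested) and 0 as higher (4.97%) with edgeR. At an unadjusted p under 0.05, 5 were lower and 0 higher. NRM, the gene of nurim, fell by 1.23 on the log2 scale, from a Ctrl mean of 38.5 ± 0.237 CPM to 16.4 ± 2.90 CPM (SD, 2 libraries each, error of the fold change 0.148, adjusted p = 0.0198, edgeR). TMEM43, the gene of LUMA, a partner of emerin and the lamins, fell by 0.66 on the log2 scale, from a Ctrl mean of 134 ± 3.56 CPM to 85.3 ± 3.15 CPM (SD, 2 libraries each, error of the fold change 0.0740, adjusted p = 0.0192, edgeR). LEMD2, a LEM domain protein related to MAN1, was at 0.11 on the log2 scale (adjusted p = 0.321, edgeR). The median of this list was -0.37.

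Of 8 partners of BAF, LBR and LAP2, 7 were tested, VRK2 being close to 0 counts, and 1 passed as lower (5.97% of all genes tested). This was CBX3, the gene of HP1 gamma, which fell by 0.84 on the log2 scale, from a Ctrl mean of 269 ± 0.105 CPM to 150 ± 14.6 CPM (SD, 2 libraries each, error of the fold change 0.0938, adjusted p = 0.0191, edgeR). CBX5 (HP1 alpha) had a log2 fold change of -0.41 and CBX1 (HP1 beta) of 0.03 (adjusted p = 0.0410 and 0.778, edgeR). CHMP7, an envelope-sealing ESCRT protein, was at 0.45 (adjusted p = 0.0438, edgeR), with both knockdown libraries above Ctrl and under 1.5-fold, and VRK1, the kinase that releases BAF from DNA, was at -0.26 (adjusted p = 0.317, edgeR). NRM, TMEM43 and CBX3 did not pass without either Ctrl library, where 0 genes of the table passed. Of the 29 tested genes of these 4 lists with a 3′ UTR, 17.2% held CAGCTCA there, TMEM43 among them and NRM and CBX3 not.

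**Figure D4:**
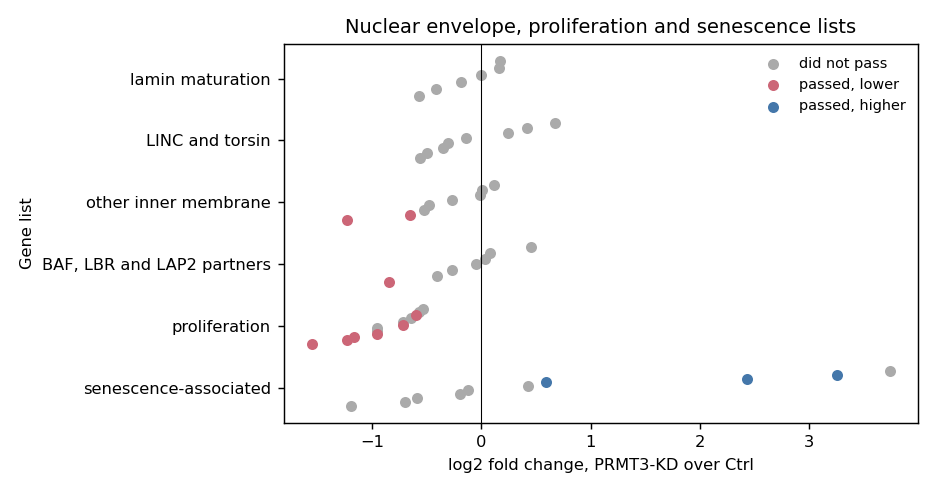
log2 fold change of PRMT3-KD over Ctrl for each tested gene of the 6 lists, with red for genes that passed as lower and blue for genes that passed as higher. The 12 proliferation genes all lie left of 0, and the nuclear envelope lists lie on both sides of it.

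Genes of proliferating cells were examined beside LMNB1 and TMPO. Of the 12 listed, 6 passed as lower (MKI67, TOP2A, CCNA2, BUB1, TYMS and FOXM1), against 5.97% of all genes tested, and 6 did not, among them CDK1 at -0.53 (adjusted p = 0.0410, edgeR), the smallest change of the list. In all, 12 of 12 had both knockdown libraries below both Ctrl libraries (33.8% of all genes tested), and the median log2 fold change was -0.83. With DESeq2 or the replicate block, 10 passed. Their summed level was 3573 to 3609 CPM in Ctrl and 1612 to 2083 CPM in knockdown libraries. The median was -0.60 in knockdown library 1 and -1.11 in library 2. Without either Ctrl library 0 passed. Their part in the lamin and LAP2 values was not tested.

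Senescence-associated genes were read beside lamin B1 as well. Of 12 listed, 10 were tested, and 3 passed as higher (4.97% of all genes tested), the lysosomal enzyme gene GLB1 (log2 fold change 0.59), the cytokine gene IL1A (2.43, from 7 and 10 counts to 47 and 43) and the stress cytokine gene GDF15 (3.25). GLB1 was just over 1.5-fold and did not pass with library totals only (0.56) or without knockdown library 1 (0.58). With edgeR 0 of the list passed as lower, against 5.97% of all genes tested (2 of the list at an unadjusted p under 0.05). The CDK inhibitor CDKN1A had a log2 fold change of -0.58 (adjusted p = 0.0263, edgeR), just under 1.5-fold, and CDKN2A had at most 2 counts in any library. Per the study, western blots of PRMT3-knockdown U251 cells showed more p21, the protein encoded by CDKN1A. The value here is of RNA, and the difference in direction was not examined. CXCL8 and IL6, secreted factors of the same list, were at -1.19 and -0.70 (adjusted p = 0.252 and 0.0593, edgeR), and each passed as lower with 1 other tool, IL6 with DESeq2 and CXCL8 with limma-voom. MMP3, a secreted protease gene, was at 3.73 (adjusted p = 0.156, edgeR), with 721 counts in knockdown library 1 and 35 in library 2. The genes of this list therefore did not move in 1 direction, and the median was 0.15.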

How the data were processed

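The data are RNA-seq gene counts of 4 U251 libraries, 2 per group. Per the study's methods, reads were aligned to hg19 with TopHat and counted with Cufflinks. The authors deposited unnormalized whole-number counts per gene, used here as deposited, and versions, annotation and strand setting are not given in the sources used here. Without strand or multi-mapping settings, reads of overlapping genes and pseudogenes may be split wrongly. One duplicate entry was removed (1 of 15576).

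Low genes were removed with filterByExpr of edgeR 4.0.16 (R 4.3.3), with 10 as the minimum count and 15 as the minimum total. After TMM scaling, glmQLFit and glmQLFTest compared the groups without covariates, with adjustment over 13172 genes. Standard errors come from the fold change and the F statistic. Genes passed with an adjusted p under 0.05 and over 1.5-fold. Depth of 24804250 to 29756313 counts limits genes with few counts. The script was tested on simulated data. Alternatives were DESeq2 1.42.0, other scalings and filters, limma-voom (limma 3.58.1) with group weights, a replicate block and leaving out each library.

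The members and lists were chosen with earlier results of these data known. All members are named. Of the lists, genes past the threshold were named first, then the largest and smallest changes, and the other listed genes given were chosen for their roles after their values were seen. Annotation was GENCODE 44 lifted to GRCh37, and 99.9% of tested identifiers matched. Python 3.11.15 was used for sequences and SciPy 1.17.1 for the permutation test.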

Additional observations from a re-analysis of the deposited data

How the results depend on the processing

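Under the 7 other tests, scalings, filters and the block, LMNB1 and TMPO passed throughout, with log2 fold changes of -0.66 to -0.63 and -0.91 to -0.88, and the other 7 members did not pass. The 2 libraries of a group limit precision, and the Ctrl libraries varied less than the knockdown libraries, and fits without 1 Ctrl library passed 0 genes. With each library left out, the number passing as lower was 0 to 2 for the 9 members, 0 to 1 for lamin maturation, LINC and torsin, and BAF, LBR and LAP2 partners, 0 to 3 for other inner membrane, 0 to 12 for proliferation, 0 to 2 for senescence-associated and 0 to 1636 for all genes. As higher it was 0 to 1 for LINC and torsin, 0 to 4 for senescence-associated and 0 to 1432 for all genes. The log2 fold change of PRMT3 ranged from -3.61 to -2.68, with an adjusted p of up to 0.0764 (edgeR). With each library left out, the log2 fold change of LMNA ranged from -0.0126 to 0.0726, that of LBR from -0.0314 to 0.215 and that of EMD from -0.0813 to 0.0251, so each changed sign without 1 knockdown library (library 1 for LMNA, library 2 for LBR and EMD).

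With no fold threshold, 1 lamin maturation gene, 1 LINC and torsin gene, 3 other inner membrane genes and 2 partner genes passed as lower. So did 8 proliferation genes and 1 senescence-associated gene, against 1173 of all genes. As higher, 1 LINC and torsin gene, 1 partner gene and 4 senescence-associated genes passed, against 1105 of all genes. With library totals only, 1 LINC and torsin gene passed as lower, against 754 of all genes. DESeq2, limma-voom and the replicate block each passed 1 LINC and torsin gene (SYNE1) as higher and 10 proliferation genes as lower. Of all genes, they passed 992, 902 and 801 as lower and 842, 788 and 663 as higher. DESeq2, library totals only, both filters and limma-voom each passed 1 senescence-associated gene as lower (IL6 with DESeq2, CXCL8 with limma-voom, CDKN1A otherwise). The filters passed 770 of all genes (at least 1 count in any library) and 804 (at least 10 counts in every library) as lower. The share of calls that were higher was 45.5%, and 40.9% with library totals only. The change of the B-type share, -24.3 percentage points, was -28.1 by counts and -26.9 by the exon union, the latter chosen after the data were examined, and that of the LMNB2 share, -23.1, was -28.4 and -29.6. The correlation between the replicate deviations of the groups was 0.0343. The Ctrl libraries differed by little more than counting error, so this value cannot show whether replicate numbers paired the libraries. The block gave 801 lower and 663 higher genes, against 786 and 655. The causes of these differences were not tested.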
